A study of Homo sapiens with 6 samples.

Results

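Keratins are the intermediate filament proteins of epithelial cells. Levels of 10 keratin genes, KRT23, KRT8, KRT18, KRT19, KRT7, KRT10, KRT20, KRT80, KRT81 and KRT86, were taken from the 29908 genes measured in Hep3B cells, an established line of human hepatocellular carcinoma (HCC). They were selected by symbol, 5 of type I and 5 of type II, with earlier results of these data known. The gene lists used below were also chosen with those results known. KRT23 was chosen by its measured FPKM, because it was lower after DAGLA knockdown. Its values are therefore given as a description without a test. DAGLA encodes diacylglycerol lipase alpha, which makes the endocannabinoid 2-arachidonoylglycerol.

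A keratin filament is built from heterodimers of 1 type I chain and 1 type II chain. Hepatocytes are known for the pair KRT8 (type II) and KRT18 (type I), whereas bile duct cells carry KRT7 (type II) and KRT19 (type I) as well. KRT23 is a type I keratin described in stressed liver and in ductular reactions. KRT80 is a type II chain found near cell junctions, KRT10 belongs to the upper epidermis, KRT20 to gastrointestinal epithelium, and KRT81 and KRT86 are chains of hair.

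The series held 6 libraries. All were from Hep3B cells, infected with lentivirus and selected with puromycin. Hep3B-Con cells carried the control virus, named shControl in the sample titles and an empty vector in the design text, and Hep3B-KD cells carried shDAGLA. Each group had 3 libraries, which the design text calls biological replicates. Both groups come from 1 line, and the knockdown from 1 hairpin. The sample records name DMEM as the medium, the study's methods MEM-alpha.

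DAGLA itself was measured first. Its FPKM (reads scaled to gene length and library size) was 9.42, 9.40 and 9.02 in the Hep3B-Con libraries and 4.62, 4.46 and 4.78 in the Hep3B-KD libraries, a log2 fold change of -0.99 (SE 0.044, limma adjusted p = 5.3e-06). Reads counted in genes, as recovered from the FPKM values, numbered 15861039 to 17572714 per library. Replicates of a group differed by more than counting noise, with a mean chi-square per gene of 1.80 to 3.30 over the pairs, and the highest value was between Hep3B-Con replicates 1 and 2. The hepatocyte marker ALB, the gene of albumin, was at 2042 ± 25.9 FPKM in Hep3B-Con and 3315 ± 6.90 in Hep3B-KD (SD, n = 3 each). Not all hepatocyte markers were high, as HP, CPS1, TAT and CYP3A4 had group means of at most 0.244 FPKM. The 6 endothelial and blood cell markers in the table summed to at most 0.458 FPKM in any library.

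The hairpin sequence is shown because the guide strand made from it can pair with other messages through its seed, bases 2 to 8. The seed is in capitals in the guide strand, and the matching bases are in capitals in the 3' UTR stretches of the keratins that hold them. All are written 5' to 3' as DNA letters. The hairpin target comes from the study's oligo list and the transcripts from GENCODE release 29.
shDAGLA target: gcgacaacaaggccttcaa
shDAGLA guide strand: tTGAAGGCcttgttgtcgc
KRT23 (KRT23-201): ttcctactgcaGCCTTCAgattctcatca
KRT8 (KRT8-217): ttaggtgtttgGCCTTCAagtttgtcagc

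The letters GCCTTCA were searched on the transcribed strand of the longest annotated 3' UTR of each gene. KRT23 held 1 match, at bases 232 to 238 of its 293-base 3' UTR, on chromosome 17 from 40922751 to 40922757 on the minus strand of GRCh38. KRT8 held 1 match in the 2190-base 3' UTR of the alternative transcript KRT8-217, at bases 1656 to 1662 (chromosome 12, 52947142 to 52947148, minus strand). The 241-base 3' UTR of the principal transcript KRT8-216 held none, and further KRT8 transcripts were not searched. The longest 3' UTRs of the other 8 members held no match. Of 11165 expressed genes with such a 3' UTR, 1601 (14.3%) held the match. Whether the match had a part in the KRT23 values was not tested.

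The genes lie in the keratin clusters of chromosomes 12 and 17. Coordinates are those of GENCODE release 29 on GRCh38. The processing notes of the submitters name GRCh37, but the exon lengths of release 29 turned the deposited FPKM values into whole reads. KRT80 (52168996 to 52192000), KRT7 (52232520 to 52252186), KRT86 (52249300 to 52309163), KRT81 (52285913 to 52291534) and KRT8 (52897187 to 52949954) are on chromosome 12. So is KRT18 (52948871 to 52952901), a type I gene beside the type II cluster. KRT10 (40818117 to 40822595), KRT20 (40875941 to 40885227), KRT23 (40922696 to 40937634) and KRT19 (41523617 to 41528308) are on chromosome 17.

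Of the 10 members, 7 had a mean of at least 0.5 FPKM and entered the genome-wide fit, while KRT20, KRT81 and KRT86 did not. Differences are log2 fold changes of FPKM + 0.1, Hep3B-KD minus Hep3B-Con, which understate the change of low genes. Of the 6 members other than KRT23 in the fit, all 6 had an adjusted p under 0.05. KRT8, KRT18, KRT7 and KRT80 fell, and KRT19 and KRT10 rose, with the call for KRT19 lost in 6 of 16 alternatives. This count stands against a wide background, since 59.9% of the 14221 genes tested passed the same threshold, 23.8% as lower and 36.1% as higher in Hep3B-KD. With a fold change of at least 2 added, KRT7 and KRT80 were lower, against 2.94% of all genes, and no member was higher, against 5.89%. The median log2 fold change was -0.44 over these 6 members and 0.11 over all genes tested. Centring the fit on the median log ratio moved the latter to 0.01. The members were chosen with earlier results known, so their counts beside the shares of all genes are description, not a test.

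**Figure D1:**
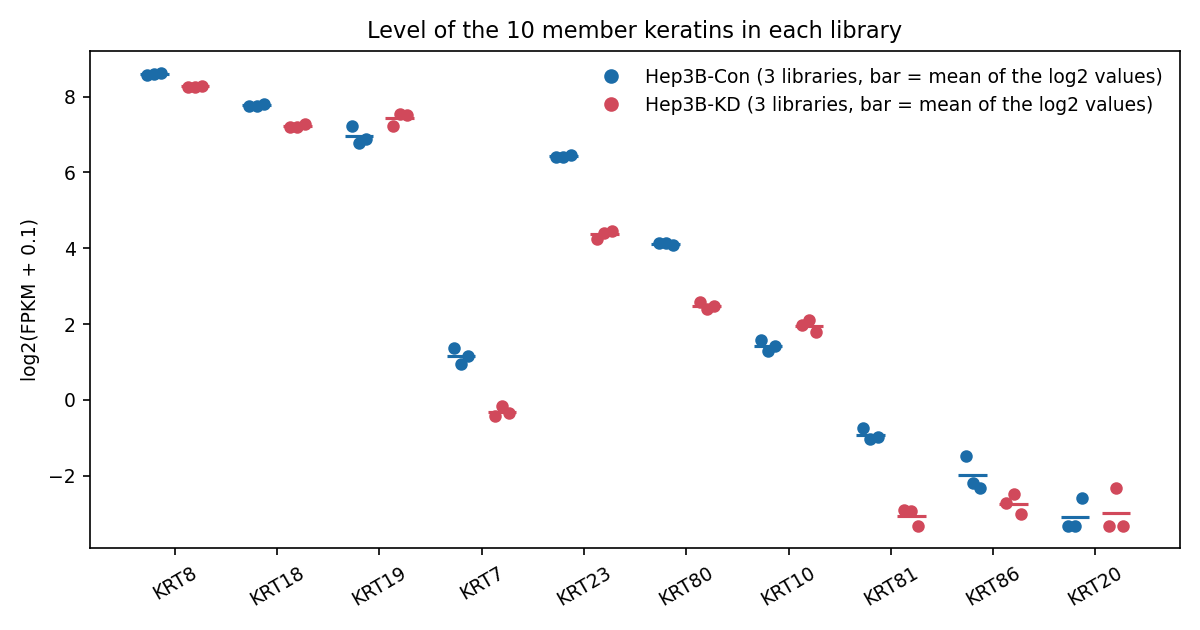
Level of each of the 10 keratins, as log2(FPKM + 0.1), in the 3 Hep3B-Con libraries (blue) and the 3 Hep3B-KD libraries (red), with bars at the mean of the log2 values. KRT23, KRT80 and KRT7 stood well apart between the groups, whereas Hep3B-Con replicate 1 and Hep3B-KD replicate 1 of KRT19 nearly met, at 149.6 and 150.3 FPKM.

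KRT8 and KRT18, the pair of the hepatocyte filament, were the most abundant members in Hep3B-Con. KRT8 was at 383.6, 385.1 and 391.7 FPKM in the Hep3B-Con libraries and at 306.0, 307.2 and 311.4 FPKM in the Hep3B-KD libraries. The groups did not overlap, and the SD was about 1% of the mean, 1.11% in Hep3B-Con and 0.915% in Hep3B-KD. KRT8 fell by 0.33 on the log2 scale (95% interval -0.36 to -0.29, limma adjusted p = 5.4e-06). With quantile normalization the difference was -0.07 (adjusted p = 0.0033), so the size of the fall depends on how the libraries are scaled.

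KRT18 was at 216.1, 216.9 and 223.2 FPKM in Hep3B-Con and at 147.2, 147.6 and 154.9 FPKM in Hep3B-KD. Every Hep3B-KD library was below every Hep3B-Con library. KRT18 fell by 0.55 on the log2 scale (95% interval -0.61 to -0.48, limma adjusted p = 6.2e-06). Non-overlap between the groups was common, found for 66.9% of all genes tested.

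Reads of KRT8 and KRT18 carry an uncertainty of origin. Both genes have many processed pseudogenes, and 32.7% of the 50-base words of the principal KRT8 transcript and 31.8% of those of KRT18 occur in transcripts of other genes. The 14 KRT8 pseudogenes in the table took 0.498% to 0.708% of the combined reads, and the 15 KRT18 pseudogenes took 0.212% to 0.661%. With these reads added the log2 fold changes were -0.33 for KRT8 and -0.54 for KRT18. In addition, KRT8 and KRT18 lie on opposite strands and share 525 exonic bases, 16.3% of the exonic length of KRT18, and no strand-specific counting is stated.

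The 2 chains of the pair did not fall by the same share. KRT8 made up 63.97%, 63.97% and 63.70% of the summed FPKM of KRT8 and KRT18 in Hep3B-Con, and 67.52%, 67.55% and 66.78% in Hep3B-KD. The share was 3.41 percentage points higher in Hep3B-KD, with no overlap of the groups and an SD of 0.155 points in Hep3B-Con and 0.436 in Hep3B-KD. The two-sided exact permutation test gave p = 0.1, the smallest that 3 against 3 libraries allow. FPKM uses the union of all annotated exons, which is 6881 bases for KRT8 and 3218 for KRT18. Per length of the principal transcript, 2126 and 1562 bases, the shares were 73.5% ± 0.131 (SD, n = 3) and 76.4% ± 0.358 (SD, n = 3), a rise of 2.83 points.

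KRT19, the main type I keratin of bile duct cells, went the other way. It was at 149.6, 109.4 and 117.5 FPKM in Hep3B-Con and at 150.3, 186.2 and 182.4 FPKM in Hep3B-KD. The highest Hep3B-Con library was replicate 1 and the lowest Hep3B-KD library replicate 1, less than 1 FPKM apart. KRT19 rose by 0.47 on the log2 scale (95% interval 0.15 to 0.79, limma adjusted p = 0.020). Its SD was 16.9% of the mean in Hep3B-Con and 11.4% in Hep3B-KD, far above that of KRT8.

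The KRT19 call was not stable. The adjusted p was 0.061 without Hep3B-Con replicate 2, 0.063 without Hep3B-Con replicate 3, 0.064 without Hep3B-KD replicate 2 and 0.065 without Hep3B-KD replicate 3, with log2 fold changes of 0.38 to 0.43. It was 0.051 when the fit was centred on the median log ratio, where the log2 fold change was 0.37. A pair of genes of the Mallory-Denk body, the keratin aggregate of injured hepatocytes, had a similar order of libraries. The heat shock gene HSPB1 was at 176.0, 89.5 and 95.6 FPKM in Hep3B-Con and at 100.7, 194.7 and 130.5 FPKM in Hep3B-KD. The autophagy receptor gene SQSTM1 was at 68.7, 46.3 and 49.4 FPKM in Hep3B-Con and at 49.7, 69.3 and 60.1 FPKM in Hep3B-KD. These genes were singled out after their values were seen. In all 3 genes replicate 1 was the highest Hep3B-Con library and the lowest Hep3B-KD library. The member KRT7 and the lamina gene LMNA had this order too, so it was not particular to these 3 genes. The part of this order in the KRT19 call was not tested.

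KRT19 and KRT18 can each pair with KRT8, and their order of levels depended on the length used. In FPKM, KRT18 was above KRT19 in 3 of 3 Hep3B-Con libraries, and KRT19 was above KRT18 in 3 of 3 Hep3B-KD libraries. Per length of the principal transcript, KRT19 was above KRT18 in 0 of 3 Hep3B-Con and 1 of 3 Hep3B-KD libraries. The share of KRT19 in the sum of both, in FPKM, was 40.9%, 33.5% and 34.5% in Hep3B-Con and 50.5%, 55.8% and 54.1% in Hep3B-KD. The groups did not overlap, and the direction was the same per length of the principal transcript, with means of 31.8% and 48.4%.

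KRT7, the type II keratin that marks bile duct cells beside KRT19, was low in this line and went the opposite way to KRT19. It was at 2.47, 1.84 and 2.13 FPKM in Hep3B-Con, from 131 to 178 reads, and at 0.647, 0.791 and 0.692 FPKM in Hep3B-KD, from 42 to 52 reads. The lowest Hep3B-Con library was more than 2-fold above the highest Hep3B-KD library. KRT7 fell by 1.47 on the log2 scale (95% interval -1.82 to -1.12, limma adjusted p = 0.00017), and its ratio of means was 0.331. With a pseudocount of 1 FPKM in place of 0.1 the difference was -0.88, short of a 2-fold change. The antisense gene KRT7-AS, which shares 282 exonic bases with it, was near 0, at 0.0579 FPKM in Hep3B-Con and 0.0484 in Hep3B-KD.

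**Figure D2:**
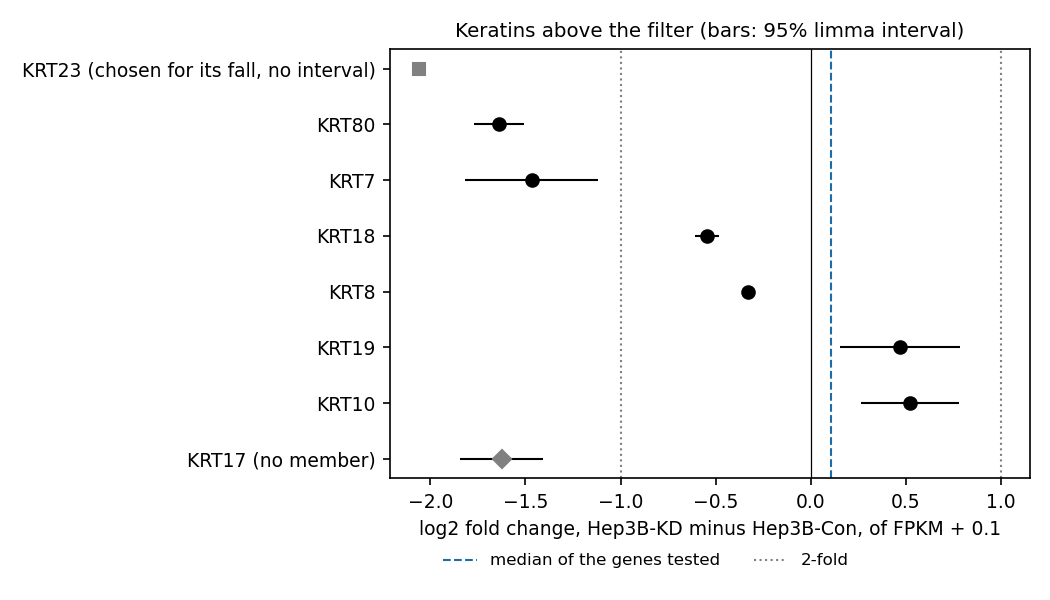
Log2 fold change of the keratins above the filter, Hep3B-KD minus Hep3B-Con, of FPKM + 0.1, with the 95% limma interval for those tested. The dashed line is the median of the genes tested (0.11) and dotted lines mark 2-fold. KRT80, KRT7 and KRT17 lay beyond 2-fold lower, KRT18 and KRT8 between 2-fold lower and 0, and KRT19 and KRT10 above 0.

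KRT23 was at 84.2, 84.7 and 88.4 FPKM in the Hep3B-Con libraries, from 4269 to 4296 reads, and at 18.9, 20.9 and 21.7 FPKM in the Hep3B-KD libraries, from 870 to 1046 reads. Its mean was 4.18-fold lower in Hep3B-KD, and its log2 fold change was -2.06. Ordered from the lowest fold change, it was gene 83 of 14221. By mean FPKM it was gene 390 of 29908 in Hep3B-Con and gene 2260 in Hep3B-KD. No 50-base word of its principal transcript occurs in another gene. The antisense gene AC004231.1, which shares 186 exonic bases with KRT23, was at 1.26 ± 0.178 FPKM in Hep3B-Con and 0.533 ± 0.211 in Hep3B-KD (SD, n = 3 each). Without strand information its reads and those of KRT23 cannot be told apart in the shared bases.

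The 5 genes whose pattern over the 6 libraries was nearest to that of KRT23, among 14220 others, were CMTM3, AMZ1, AREG, SLC22A15 and TRAM1. Likeness was measured as the Euclidean distance of log2(FPKM + 0.1) after subtraction of each gene's Hep3B-Con mean, and ran from 0.117 for CMTM3 to 0.168 for TRAM1. AREG, the gene of the EGF receptor ligand amphiregulin, was at 41.8, 42.8 and 43.4 FPKM in Hep3B-Con and at 10.3, 10.8 and 10.9 FPKM in Hep3B-KD. TRAM1, a gene of the endoplasmic reticulum translocon, was at 141.0, 146.4 and 144.5 FPKM in Hep3B-Con and at 35.1, 36.7 and 35.9 FPKM in Hep3B-KD. They were selected for these values, so no test is given.

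KRT80, the junction-associated type II keratin, was at 17.6, 17.6 and 16.8 FPKM in Hep3B-Con and at 5.87, 5.14 and 5.51 FPKM in Hep3B-KD. The groups were far apart and tight within. KRT80 fell by 1.64 on the log2 scale (95% interval -1.77 to -1.51, limma adjusted p = 1.8e-06), and its mean was 3.15-fold lower in Hep3B-KD. In the main fit this was the largest fall among the 6 tested members. With quantile normalization KRT7 fell more, with log2 fold changes of -1.74 for KRT7 and -1.70 for KRT80. Its longest 3' UTR, of 2527 bases, held no GCCTTCA.

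KRT10, a type I keratin of differentiating epidermis, was low and went up. It was at 2.89, 2.36 and 2.58 FPKM in Hep3B-Con and at 3.82, 4.21 and 3.37 FPKM in Hep3B-KD, from 88 to 145 reads per library. The groups did not overlap. KRT10 rose by 0.52 on the log2 scale (95% interval 0.27 to 0.78, limma adjusted p = 0.0052), and by 0.33 with quantile normalization (adjusted p = 0.034). TMEM99, which overlaps KRT10 on the opposite strand by 56 exonic bases, was at 7.92 ± 0.215 FPKM in Hep3B-Con and 7.42 ± 0.470 in Hep3B-KD (SD, n = 3 each) and did not pass the test (adjusted p = 0.175). Of the squamous epithelium markers, TGM1, the transglutaminase gene of the epidermal envelope, was at 0.942 ± 0.141 FPKM (SD, n = 3) and 0.918 ± 0.128 (SD, n = 3), with no call (adjusted p = 0.89).

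The hair keratins KRT81 and KRT86 were at the edge of detection. KRT81 had 17, 13 and 13 reads in Hep3B-Con and 1, 1 and 0 in Hep3B-KD. Relative to library depth, the Hep3B-KD sum of 2 reads was 0.0495 of the Hep3B-Con sum of 43 (exact 95% interval 0.00581 to 0.190, counting error only). KRT86 had 11, 5 and 4 reads in Hep3B-Con and 2, 3 and 1 in Hep3B-KD, a ratio of 0.319 (exact 95% interval 0.105 to 0.824). Neither entered the fit, and without the filter KRT81 passed (adjusted p = 0.0014) while KRT86 did not (adjusted p = 0.16).

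The KRT81 and KRT86 counts are tied to each other. Of the 50-base words of the principal KRT81 transcript, 38.4% occur in KRT86, and 33.3% of those of KRT86 occur in KRT81, so reads may have been split between them. The summed reads of both, added to the fit as 1 gene, fell by 1.99 on the log2 scale (adjusted p = 0.0085). KRT20, the intestinal type I keratin, had 2 reads in 1 Hep3B-Con library and 3 in 1 Hep3B-KD library, and 0 in the other 4. Here 3 reads are worth 0.0925 to 0.102 FPKM, and no difference between the groups was detectable at this depth.

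**Figure D3:**
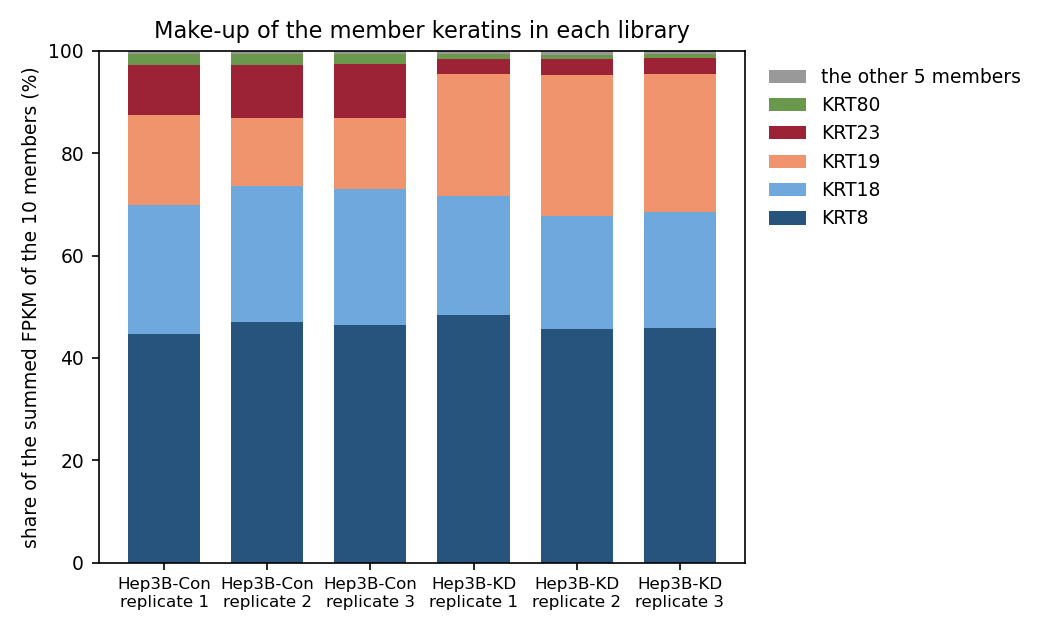
Share of each keratin in the summed FPKM of the 10 members, in percent, for each library. KRT23 took 9.83% to 10.5% of the sum in Hep3B-Con and 2.99% to 3.19% in Hep3B-KD, while KRT19 took 13.4% to 17.4% and 23.7% to 27.7%.

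The make-up of the keratin messages was read from a sum that contains KRT23, whose lower level in Hep3B-KD was the ground for choosing it and raises the shares of the other members. Summed over the 10 members, FPKM was 857.2, 818.5 and 842.9 in Hep3B-Con and 632.9, 672.2 and 680.0 in Hep3B-KD. KRT8 alone took 46.1% ± 1.20 of the sum in Hep3B-Con and 46.6% ± 1.51 in Hep3B-KD (SD, n = 3 each), and the groups overlapped. KRT18 took 25.2%, 26.5% and 26.5% in Hep3B-Con and 23.3%, 22.0% and 22.8% in Hep3B-KD, with no overlap. KRT8 and KRT18 together took 70.0%, 73.6% and 73.0% in Hep3B-Con and 71.6%, 67.6% and 68.6% in Hep3B-KD, so these groups overlapped too. No test is given for these shares. The type II share was 48.5% ± 1.18 in Hep3B-Con and 47.6% ± 1.59 in Hep3B-KD (SD, n = 3 each). Per length of the principal transcript it was 61.8% and 61.4%.

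The order of levels in Hep3B-Con FPKM was KRT8, KRT18, KRT19, KRT23, KRT80, KRT10, KRT7, KRT81, KRT86 and KRT20. The ranges of KRT10 and KRT7 overlapped, and per length of the principal transcript KRT7 was above KRT10 in 3 of 3 Hep3B-Con libraries. In Hep3B-KD the order differed from this in the place of KRT19 above KRT18, whose ranges overlapped, and of KRT86 above KRT20 and KRT81, all of these last at 3 reads or fewer in each library.

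**Figure D4:**
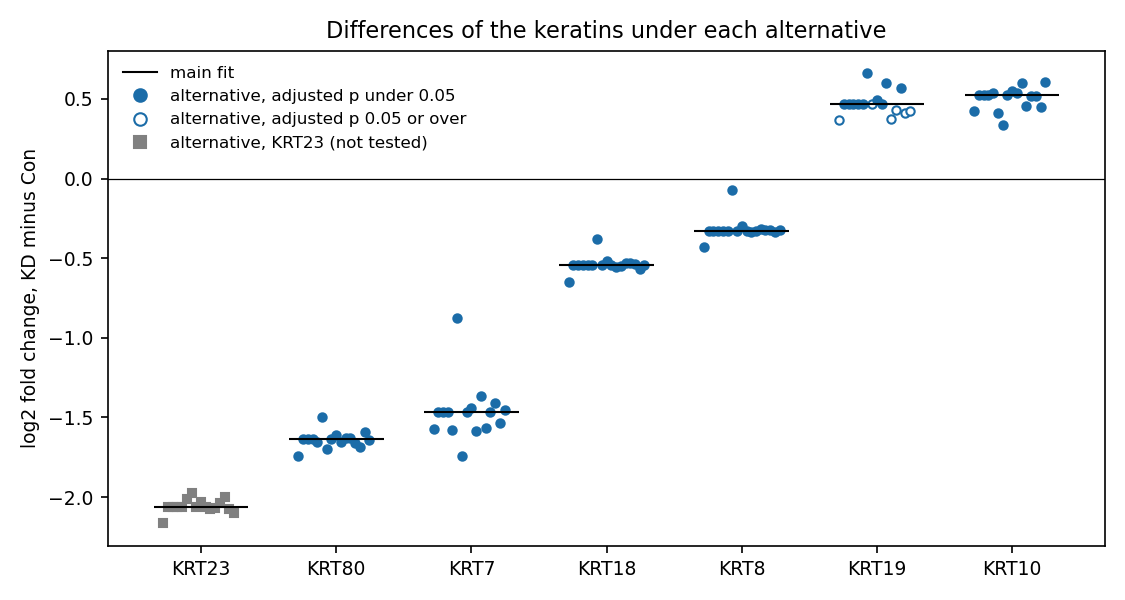
Log2 fold change of each keratin above the filter under the main fit (line) and under each alternative (points), Hep3B-KD minus Hep3B-Con. Open points, where the adjusted p reached 0.05, occur for KRT19 alone, and KRT7 has 1 point at -0.88, from the pseudocount of 1 FPKM.

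Among 10 other protein-coding keratins in the table, only KRT17 was above the filter. KRT17, a type I keratin of stressed and basal epithelium, was at 8.87 ± 0.530 FPKM in Hep3B-Con and 2.82 ± 0.324 in Hep3B-KD (SD, n = 3 each). It fell by 1.63 on the log2 scale (limma adjusted p = 1.3e-05). Its mean in Hep3B-Con was between those of KRT80 and KRT10.

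Cytolinkers and junction proteins attach keratins to the cell surface. Of 21 genes of cytolinkers, desmosomes and hemidesmosomes, 17 were above the filter, 10 rose, 3 fell and 4 did not pass. Rises also outnumbered falls over all genes tested, where 36.1% were higher and 23.8% lower. The median log2 fold change was 0.21, against 0.11 over all genes. With the fit centred on the median log ratio 6 rose and 4 fell, since PPL, DST, ITGA6 and TCHP lost their rise and PLEC then passed as lower. DSP, the gene of desmoplakin, which anchors keratins at desmosomes, went from 84.8 ± 0.920 FPKM (SD, n = 3) to 112.5 ± 0.271 (SD, n = 3) and rose by 0.41 on the log2 scale. Its partner JUP, the gene of plakoglobin, also rose by 0.41 (adjusted p = 5.2e-05). The desmosomal cadherins went apart, as DSC2 rose by 0.93 and DSG2 fell by 0.24 on the log2 scale. PERP, a desmosomal membrane protein gene, fell by 0.64 and ITGB4, the hemidesmosomal integrin gene, fell by 0.32 on the log2 scale. PLEC, the gene of the linker plectin, was at 20.1 ± 1.04 FPKM (SD, n = 3) and 18.7 ± 0.493 (SD, n = 3) and did not pass in the main fit (adjusted p = 0.0945).

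Of 15 other intermediate filament genes, 7 were above the filter, 5 fell, 1 rose and 1 did not pass, against 23.8% lower and 36.1% higher over all genes tested, with a median log2 fold change of -0.35. With quantile normalization 4 fell and 2 rose, as the lamina gene LMNB2 was then at -0.02 (adjusted p = 0.37) and LMNA passed as higher. NES, the gene of nestin, was at 89.2, 83.8 and 85.4 FPKM in Hep3B-Con and at 35.7, 35.5 and 36.9 FPKM in Hep3B-KD, a fall of 1.26 on the log2 scale. VIM, the gene of vimentin, the mesenchymal filament, fell by 0.35, and the nuclear lamina gene LMNB1 fell by 0.42 on the log2 scale. SYNM, the gene of synemin, rose by 0.51 on the log2 scale.

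**Figure D5:**
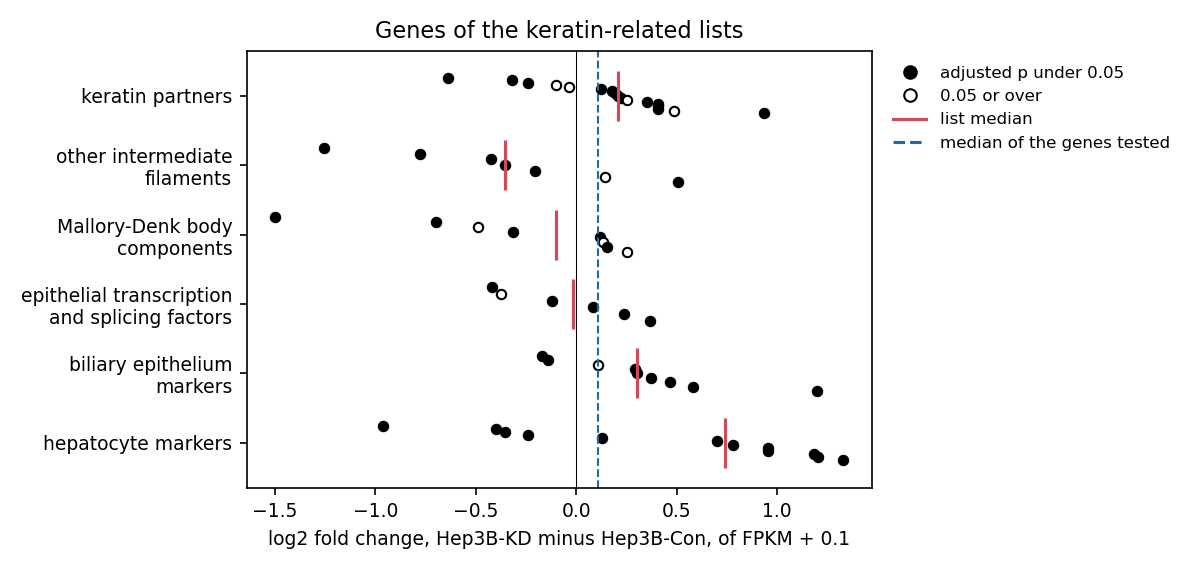
Log2 fold change, Hep3B-KD minus Hep3B-Con, of the genes above the filter in 6 lists around keratins, with filled points for an adjusted p under 0.05, a red bar at the list median and a dashed line at the median of all genes tested. Medians ran from -0.35 for other intermediate filaments to 0.74 for hepatocyte markers.

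Of 8 Mallory-Denk body components besides keratins, all 8 were above the filter, 3 fell, 2 rose and 3 did not pass, against 59.9% of all genes called, with a median of -0.10. UBB, a ubiquitin gene, rose by 0.15 on the log2 scale and did not pass with centring. TGM2, the transglutaminase that crosslinks KRT8, was at 10.5, 10.9 and 10.2 FPKM in Hep3B-Con and at 4.19, 3.49 and 3.36 FPKM in Hep3B-KD, a fall of 1.50 on the log2 scale. HSPA8, the constitutive HSP70 chaperone gene, fell by 0.70 on the log2 scale. Of 12 epithelial transcription and splicing factors, 6 were above the filter, 2 fell, 3 rose and 1 did not pass, against the same 59.9%, with a median of -0.02. ELF3, an epithelial ETS factor gene, fell by 0.42 on the log2 scale. None of the 3 rises, of GRHL1, KLF5 and ESRP1, passed with centring, where ESRP1 was at -0.02.

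The biliary and hepatocyte labels were read against their other markers. Of 16 biliary epithelium markers, 9 were above the filter, 6 rose, 2 fell and 1 did not pass, against 59.9% of all genes called, 36.1% as higher and 23.8% as lower, with a median of 0.30 and a summed level of 625.7 to 633.4 FPKM in Hep3B-Con and 799.0 to 809.0 in Hep3B-KD. The largest part of this sum was CD24, with means of 324.4 FPKM in Hep3B-Con and 420.2 in Hep3B-KD. SOX9, EPCAM, CD24 and PROM1 rose by 0.29 to 0.58, and ONECUT1 by 1.20 on the log2 scale. Of the duct transport and junction genes, the anion exchanger gene SLC4A2 was at means of 38.9 and 34.6 FPKM and the secretin receptor gene SCTR at 2.72 and 2.96 FPKM. CFTR, CLDN4, AQP1 and CLDN10 were below the filter, none above 0.328 FPKM in either group mean. Of 16 hepatocyte markers, 12 were above the filter, 8 rose and 4 fell, against the same background, with a median of 0.74 and a summed level of 3915 to 3977 FPKM in Hep3B-Con and 6314 to 6363 in Hep3B-KD. The largest part of that sum was ALB, with means of 2042 FPKM in Hep3B-Con and 3315 in Hep3B-KD. AMBP, APOB and APOH rose by 1.19 to 1.33, while FGB fell by 0.96 and HNF4A by 0.35 on the log2 scale. AHSG and ASGR1 fell too, with log2 fold changes of -0.40 and -0.24. The part of these markers in the keratin values was not tested.

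Of 6 stromal cell markers, 3 were above the filter and all 3 fell, against 23.8% of all genes tested called as lower. The 6 stromal cell markers summed to 9.28 to 10.2 FPKM in Hep3B-Con and 5.48 to 5.96 FPKM in Hep3B-KD. LUM, the gene of lumican, was at 5.83, 5.81 and 6.45 FPKM in Hep3B-Con and at 3.46, 3.04 and 3.37 FPKM in Hep3B-KD, and fell by 0.86 on the log2 scale. PDGFRB, a receptor gene of pericytes and fibroblasts, went from a mean of 2.67 to 2.11 FPKM and fell by 0.32. The collagen gene COL1A1 went from 0.745 to 0.271 FPKM and was above the filter only through its Hep3B-Con libraries, and COL1A2, at 0.136 and 0.0685 FPKM, was below it. DCN and COL3A1 had group means of at most 0.0086 FPKM. The part of these markers in the keratin values was not tested. In bulk RNA, fewer cells that express a gene and less RNA per cell cannot be told apart.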

How the data were processed

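The authors prepared mRNA libraries from 3 Hep3B-Con and 3 Hep3B-KD samples, sequenced them on an Illumina instrument and deposited FPKM values, 1 column per library. The submitters' processing notes name Bowtie2 2.0.6, TopHat2 2.0.12 and GRCh37, and the counting step is not given in the sources used here. The table held 0 columns of other samples. Samples were grouped by their titles.

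Each FPKM value, multiplied by the exon length in GENCODE release 29 and the library total, came within 0.01 of a whole read for 100% of values above 0. Intervals on reads cover counting error only. Genes were kept at a 6-library mean of 0.5 FPKM or more and fitted as log2(FPKM + 0.1) with limma 3.58.1 (eBayes with trend) in R 4.3.3, with no replicate block and Benjamini-Hochberg adjustment over 14221 genes. The KRT8 share of KRT8 and KRT18 was compared with an exact permutation test (scipy 1.17.1), and the other shares were not tested. A 3 against 3 test cannot go below 0.1. The principal transcript of each gene was taken from the annotation.

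The members and lists were chosen with earlier results of these data known. All members, DAGLA, the listed genes, the 5 genes nearest to KRT23, genes overlapping or near-identical with a member, and other keratins above the filter could be named. The alternatives were other pseudocounts, filters, scalings and variance models, voom on the recovered reads, a replicate block, each library left out, and pseudogene or paralog reads added. Shares per length of the principal transcript were chosen after seeing the data.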

Additional observations from a re-analysis of the deposited data

How the results depend on the processing

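KRT8, KRT18, KRT7, KRT80 and KRT10 kept their direction and an adjusted p under 0.05 in every alternative run for them, and KRT19 kept its direction, with log2 fold changes from 0.37 to 0.66, but lost the call in 6 alternatives. Members other than KRT23 with a call numbered 5 to 6 when 1 library was left out, 7 with no filter (KRT81 added), and 6 in the main fit. The log2 fold change of KRT23 was -2.16 when centred on the median log ratio and -1.97 with quantile normalization, by construction of these scalings, and -2.10 to -2.00 with 1 library left out. Genes past 2-fold numbered 503 with a pseudocount of 1, which shrinks low genes, against 1256 in the main fit and 1206 to 1264 with 1 library left out. Genes with an adjusted p under 0.05 numbered 7801 to 7915 in those fits, against 8521. The KRT8 share of KRT8 and KRT18 differed by 2.83 points per length of the principal transcript and by 3.27 to 3.66 points with 1 library left out. The share of both in the summed members differed by -4.05 to -2.06 points. Same-numbered samples did not deviate together (correlations -0.013, -0.066 and -0.0011), so the numbers were not used as pairs. With the replicate block 7919 genes were called, and among the members KRT19 alone lost its call (adjusted p = 0.061). Depth limits KRT20, KRT81 and KRT86, which had 17 reads or fewer in each library.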
